A study of Homo sapiens with 15 samples.

Results

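The comparison described here is that of senescent WI-38 fibroblasts given an siRNA against SRC, named siSRC2 in the sample titles, with the PD45 control. It covers all 331 rows of the deposited table whose library columns are siSRC2_1 to siSRC2_3 and NC1 to NC3, out of 4872 genes present in any of the 4 deposited tables of the study. Each row is a gene that the authors selected on this same contrast, with an adjusted p under 0.05 and a 1.5-fold or larger change, up or down, so being listed is a description and genes outside the table were not used here. WI-38 cells are human fibroblasts from fetal lung that stop dividing after a finite lifespan. The 3 siSRC2 libraries come from cells at PD45 (45 generations) that received DMSO and the lipofection reagent lipo3000 with siSRC. The 3 control libraries come from PD45 cells with DMSO and lipo3000 with NC, a name the labels do not spell out. DMSO and the lipofection reagent are thus common to both groups, and no untreated PD45 cells were compared. The other groups of the study, 3 libraries each, are PD30 cells with DMSO and lipo3000, PD45 cells with a further SRC siRNA (siSRC4), and PD45 cells with the kinase inhibitor GW8510 and lipo3000 with NC. All libraries derive from the same cell line, and neither the siRNA's sequence nor its dose or duration is given in the sources used here.

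SRC encodes a non-receptor tyrosine kinase that is held inactive by phosphorylation of its tail and becomes active at integrin adhesions and below growth factor receptors. It phosphorylates focal adhesion and cytoskeletal proteins, and its activity is known to govern spreading, migration and pericellular proteolysis in fibroblasts. Senescent fibroblasts are known for a permanent stop of division, a large flat shape and altered secretion of matrix, proteases and cytokines.

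Values are the authors' normalized signal, whose exact unit (TPM or FPKM) is not stated, so levels are compared between libraries and not between genes, and read depth is unknown. No library stood apart. The median absolute difference between libraries over the listed genes was 0.11 to 0.20 on the log2(signal + 1) scale within groups and 0.57 to 0.67 between groups, the latter on genes chosen to differ. Of the 15 fibroblast markers checked, COL3A1 and COL6A3 are in the table, both higher. Among markers of other cells, KRT19 and CLDN4 of 12 epithelial genes (both lower) and TEK of 10 endothelial genes (higher) are in it, and none of the smooth muscle or leukocyte markers is. The summed level of whole marker lists, and whether defining markers are at 0, could not be given from a table of selected genes. Fewer cells of a type and less RNA per cell cannot be told apart in bulk samples.

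The targeted transcript was lower in every siSRC2 library. SRC signal stood at 11.6, 10.6 and 11.6 in the siSRC2 libraries and at 18.9, 20.5 and 19.9 in the control libraries. The groups did not overlap, and the residual level was 57.02% of control. On the log2(signal + 1) scale the difference was -0.76 ± 0.10 (SE, limma, adjusted p = 0.000184), while the two-sided exact permutation test gave p = 0.1, the smallest that 3 against 3 libraries allow. SRC was the 1 listed gene among 13 SRC family kinases and their regulators. No member of a 27-gene list of focal adhesion proteins and SRC substrates, such as PTK2, BCAR1, PXN and CTTN, was listed.

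Across the transcriptome the authors' listing took 2.64% of about 12549 genes tested, a number derived from the ratio of adjusted to unadjusted p in the leading row. Of the 331 genes, 173 were higher with siSRC2 (1.38% of genes tested) and 158 lower (1.26%). The adjusted p of the last listed gene places it near rank 2020 by p-value, or 16.1% of the genes tested, while 331 are listed. The median ratio of mean signals was 1.71 for genes higher, and genes lower had a median fall of 1.64-fold. By the authors' deposited table, at least 2-fold differences were seen for 24 genes higher and 28 genes lower, together 0.414% of genes tested. FBN1, the fibrillin gene, lay closest to the fold limit (just above 1.5-fold in the authors' deposited table), and MMP24, a membrane-type metalloprotease gene, closest to the limit of adjusted p (authors' deposited table, 0.0489). For 300 of 331 genes (90.6%) every siSRC2 library lay on the same side of every control library, and 31 overlapped although listed. A limma fit of 310 genes, those whose signal averaged 1 or more, passed 296 in the authors' direction (95.5%), 148 higher and 148 lower. These shares follow from the authors' selection and are no independent evidence. The same holds for the limma adjusted p-values of single genes throughout, since the fit covered only genes already selected on this contrast.

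Protein-coding genes made up 164 of 173 genes higher and 146 of 158 lower. The longest annotated transcript had a median of 5223 bases among genes higher and 2698 among genes lower. Control signals had a median of 4.61 among genes higher and of 12.5 among genes lower. These medians were not tested against each other, nor was the part of transcript length in the results below.

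**Figure D1:**
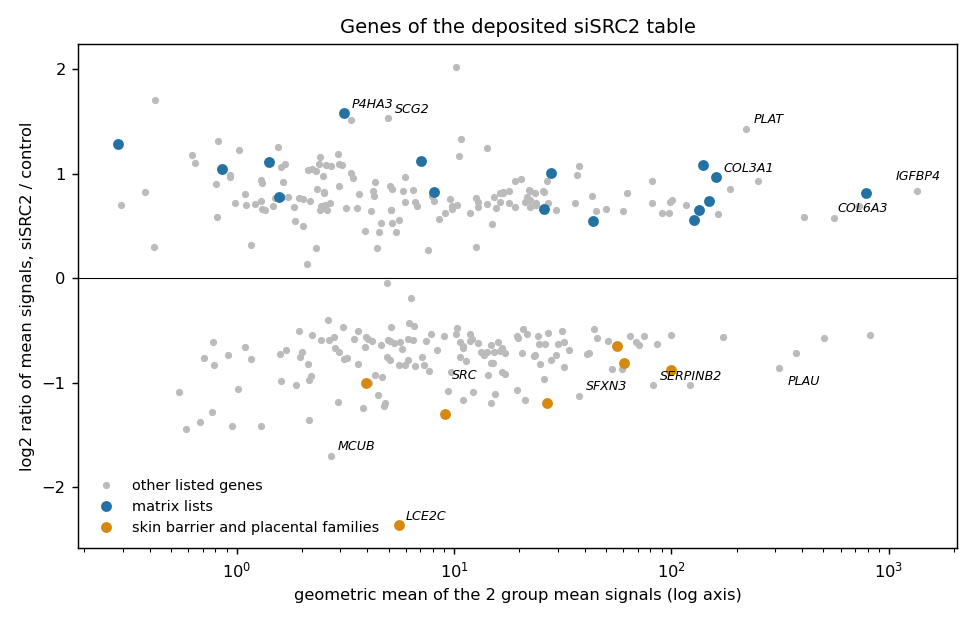
Each point is a gene of the deposited siSRC2 table, placed by the geometric mean of its group mean signals (log x axis) and by the log2 ratio of mean signals, siSRC2 over control (y axis). Blue points are the 16 listed genes of the 4 matrix lists, all above 0, and orange points are the 7 listed genes of skin barrier and placental families, all below 0.

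In the 4 lists of collagens, collagen processing, other matrix proteins and proteoglycans, every listed gene was higher with siSRC2. Of 147 genes in these matrix lists, 16 were listed (10.9%, against 2.64% of all genes tested), all 16 higher and none lower, with a median log2 ratio of 0.90 against 0.77 for all genes listed as higher. They comprised 7 of 34 collagens, 5 of 52 other matrix proteins, 3 of 32 proteoglycan and hyaluronan genes and 1 of 29 collagen-processing genes. Shares given for this and later lists are of all symbols in a list, and how many of those were tested is not known. The lists were chosen with earlier results of these data known, so a share above 2.64% is a description and no evidence of enrichment. Over all 48 lists, 98 of 1687 distinct symbols were listed. In 14 of the 16 the groups did not overlap. Some matrix-related genes outside these lists were lower, among them ADAMTSL1, described below, and MAMDC2, a proteoglycan gene picked after its values were seen (11.2 ± 0.796 against 19.7 ± 3.39). The longest transcripts of the 16 listed genes of the matrix lists had a median of 6787.5 bases, above that of all genes higher.

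Among collagens outside the basement membrane, COL3A1, the fibrillar type III chain, had signals of 201, 222 and 252 with siSRC2 and of 108, 114 and 122 in the control, a 1.96-fold rise (limma, adjusted p = 6.38e-05). COL5A1, the type V chain that nucleates fibrils, stood at 143, 159 and 159 against 98.2, 110.1 and 105, 1.47-fold higher (adjusted p = 0.000353, limma). For COL6A3, a chain of the beaded microfibrils, the siSRC2 libraries read 958, 1055 and 1117 and the control libraries 596, 629 and 547, a ratio of 1.77. In each of these genes the lowest siSRC2 library lay above the highest control library. COL24A1, a minor fibrillar collagen, is listed at 2.05 ± 1.06 against 1.19 ± 0.522, but its libraries overlapped and its difference did not pass the limma fit (adjusted p = 0.1001). The call of COL24A1 was the 1 that a fit with the replicate number as a block changed among the genes fitted by name (adjusted p = 0.00728), and it also passed without siSRC2 replicate 3 (0.0300) or without control replicate 1 (0.0435).

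Basement membrane collagens made up the remaining 3. COL4A1, the main type IV chain, measured 205, 201 and 169.6 in siSRC2 libraries and 135, 113 and 96.4 in controls (1.67-fold higher, limma, adjusted p = 0.000557). COL4A5 stood at 49.2, 55.5 and 52.9 against 39.8, 38.9 and 29.02, and COL4A6 at 11.2, 11.3 and 8.57 against 5.52, 5.14 and 3.62. The ratios were 1.46 and 2.18 (adjusted p = 0.00244 and 0.000493, limma), and neither gene's groups overlapped. COL4A5 and COL4A6 lie head to head on the X chromosome. In RefSeq (GRCh38.p14) the COL4A5 start site and the nearer of the COL4A6 start sites are 380 bases apart, and their promoter windows, 250 bases before to 50 after each start, share 121 bases. The windows are shown because both genes rose together: COL4A5 spans chrX:108439588-108439887 on the plus strand and COL4A6 chrX:108439409-108439708 on the minus strand, with the shared stretch in capitals, each read 5′ to 3′ on its own strand.
COL4A5: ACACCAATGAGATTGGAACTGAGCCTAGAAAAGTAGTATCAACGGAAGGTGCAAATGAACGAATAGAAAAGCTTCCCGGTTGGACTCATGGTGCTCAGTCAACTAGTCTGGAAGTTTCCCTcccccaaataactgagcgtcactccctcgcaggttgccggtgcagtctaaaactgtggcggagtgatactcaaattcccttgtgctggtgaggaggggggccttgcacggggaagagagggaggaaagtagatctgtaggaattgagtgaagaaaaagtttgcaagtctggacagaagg
COL4A6: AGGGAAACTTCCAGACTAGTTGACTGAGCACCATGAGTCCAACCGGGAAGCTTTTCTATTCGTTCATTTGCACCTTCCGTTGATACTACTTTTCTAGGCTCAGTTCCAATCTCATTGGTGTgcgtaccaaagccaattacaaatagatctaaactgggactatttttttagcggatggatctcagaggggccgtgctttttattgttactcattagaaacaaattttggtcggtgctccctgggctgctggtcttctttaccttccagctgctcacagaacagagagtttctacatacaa

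Structural proteins outside the collagens moved the same way. FBN1, which forms elastic microfibrils, read 156, 172 and 177 with siSRC2 and 121, 111 and 87.7 in the control, and NID1, the basement membrane linker nidogen, 32.4, 35.5 and 30.4 against 23.2, 22.1 and 16.5. Both rose with no overlap, by ratios of 1.58 and 1.59 (limma, adjusted p = 0.000649 and 0.00126). LAMA2, a laminin chain, had a low signal of 2.07 ± 0.0862 against 0.96 ± 0.205 and was 2.16-fold higher (limma, adjusted p = 0.00066). ELN, which encodes elastin, and TNXB, tenascin X, are listed as higher at signals below the minimum of the fit (1.24 ± 0.583 against 0.60 ± 0.121, and 0.447 ± 0.0503 against 0.183 ± 0.0862), and the ELN libraries overlapped.

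Genes of the pericellular coat were among the larger rises. CEMIP, a hyaluronan-degrading protein, measured 189, 199 and 221 against 88.2, 94.7 and 105, 2.12-fold higher (limma, adjusted p = 3.85e-05). VCAN, the hyaluronan-binding proteoglycan versican, measured 39.6, 43.2 and 36.7 against 23.3, 21.1 and 14.9, a ratio of 2.01 (adjusted p = 0.000329, limma). GPC4, a cell-surface heparan sulfate proteoglycan, rose to 10.8 ± 0.995 from 6.07 ± 1.01. Of the collagen-processing enzymes, P4HA3, a prolyl hydroxylase subunit that stabilises the collagen helix, read 5.93, 6.47 and 3.84 with siSRC2 and 1.76, 1.65 and 2.01 in the control, 2.996-fold higher (adjusted p = 0.000234, limma). No lysyl oxidase or lysyl hydroxylase gene was listed.

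**Figure D2:**
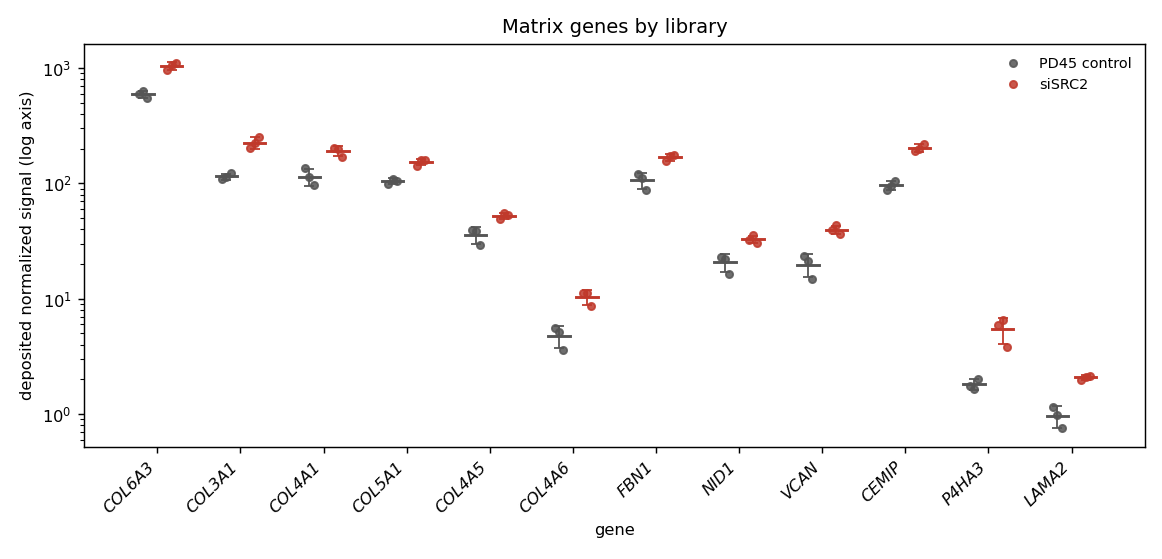
Deposited normalized signal (log axis) of 12 matrix genes in each of 3 PD45 control libraries (grey) and 3 siSRC2 libraries (red), with the mean as a bar and the SD as error bars. In all 12 the siSRC2 libraries lie above the control libraries, from LAMA2 (2.07 against 0.960) to COL6A3 (1044 against 591).

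Genes of plasminogen activation split by member. This system turns plasminogen into plasmin at the cell surface through tissue-type (PLAT) or urokinase-type (PLAU) activators, which serpins block. Of 24 genes in the list 6 were listed (25.0%, against 2.64% of all genes tested), 3 higher and 3 lower. PLAT stood at 379.6, 362 and 344 in siSRC2 libraries and 131, 133 and 138 in control libraries, a 2.698-fold rise (limma, 1.42 ± 0.08 SE on the log2 scale, adjusted p = 1.63e-06). PLAU went the other way, with 233, 228 and 232 against 450.3, 431 and 379, 1.82-fold lower (adjusted p = 6.38e-05, limma). The groups were far apart for both activators, in opposite directions. SERPINB2, the plasminogen activator inhibitor PAI-2, fell 2.03-fold from 119, 121 and 111 to 65.7, 59.5 and 48.05. Its neighbour in the same serpin cluster, SERPINB7, fell 1.796-fold from 43.3, 44.5 and 41.6 to 24.2, 26.1 and 21.8. Both falls passed the limma fit (adjusted p = 8.32e-05 and 0.000115).

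Coagulation genes of the same list were higher. F3, tissue factor, which starts clotting, read 326, 359 and 356 with siSRC2 and 178, 162 and 203 in the control (1.91-fold, limma, adjusted p = 6.38e-05). TFPI2, a Kunitz-type inhibitor of plasmin and related proteases in the matrix, read 127, 141 and 123 against 72.5, 67.6 and 91.9 (1.68-fold, adjusted p = 0.000353, limma). SERPINE2 and PLAUR were not listed.

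Of 43 metalloproteases and inhibitors 5 were listed (11.6%, against 2.64% of all genes tested), 4 higher and 1 lower. MMP14, the membrane collagenase that also activates MMP2, measured 558, 509 and 422 against 363, 343 and 286 (1.501-fold, limma, adjusted p = 0.00143). The sheddase gene ADAM19 measured 40.6, 41.2 and 28.9 against 22.5, 18.6 and 17.1, 1.903-fold higher (adjusted p = 0.000567, limma). ADAMTS9, a versican-cleaving protease, was 2.34-fold higher at a low signal, 1.57 ± 0.288 against 0.67 ± 0.090. MMP24 rose to 1.65 ± 0.279 from 1.04 ± 0.0755 (limma, adjusted p = 0.0125), and without siSRC2 replicate 2 its adjusted p was 0.0586. ADAMTSL1, a protease-like matrix protein without catalytic activity, fell to 4.36 ± 0.232 from 6.05 ± 0.681 (limma, adjusted p = 0.0129, and 0.0508 without control replicate 2). Outside the list, ADAMTS19 was among the 15 largest rises, at 23.1, 17.2 and 24.9 against 8.1, 8.41 and 11. CPA4, a secreted carboxypeptidase, fell to 297, 279.8 and 303 from 452, 552 and 437. No TIMP was listed.

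**Figure D3:**
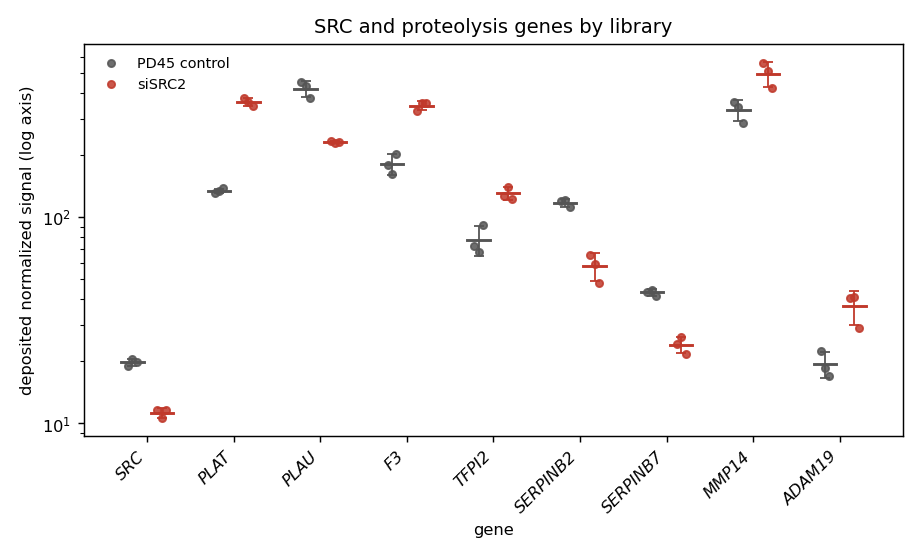
Deposited normalized signal (log axis) of SRC and 8 genes of plasminogen activation, coagulation and matrix proteolysis in 3 PD45 control libraries (grey) and 3 siSRC2 libraries (red), with mean bars and SD. SRC, PLAU, SERPINB2 and SERPINB7 are lower in every siSRC2 library, and PLAT, F3, TFPI2, MMP14 and ADAM19 are higher in every siSRC2 library.

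Adhesion and cytoskeletal genes were few. ITGA7, a laminin-binding integrin chain, was the 1 listed integrin of 20 (5.0%, against 2.64% of all genes tested). It read 8.44, 8.94 and 7.88 with siSRC2 against 16.2, 21.5 and 15.9, 2.12-fold lower (limma, adjusted p = 0.000188). PCDH18, a protocadherin, rose to 86.3, 79.1 and 84.1 from 50.8, 43.7 and 46.9. TPM4, a non-muscle tropomyosin of actin filaments, stood at 961, 912 and 918 against 584, 511 and 632 (1.62-fold higher, adjusted p = 0.000162, limma). CDC42EP4, an effector of the GTPase CDC42, fell 1.53-fold, and no PAK gene was listed.

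LIM-domain and muscle-type genes went both ways. LPP, a zyxin relative at focal adhesions, read 15.7, 18.2 and 13.4 against 7.37, 7.51 and 6.09, 2.26-fold higher (limma, adjusted p = 0.000162). LMCD1, a LIM-domain cofactor, fell to 12.8, 13.7 and 13.9 from 30.2, 30.8 and 23.98. ANKRD1, a mechanically responsive gene that YAP and TEAD factors induce, measured 4.51, 2.92 and 1.95 against 10.2, 6.67 and 4.93, 2.33-fold lower (limma, adjusted p = 0.00444). The ANKRD1 groups did not overlap, although the control libraries alone ranged from 4.93 to 10.25. Of the 28 genes on the YAP and TEAD list 2 were listed (7.14%, against 2.64% of all genes tested). F3, described above, was the other beside ANKRD1, and it was higher. LDB3, a Z-disc protein, was lower at 1.32 ± 0.378 against 2.68 ± 1.34 with overlapping libraries (limma, adjusted p = 0.0229), and its adjusted p was 0.0572 without siSRC2 replicate 2 and 0.0701 without control replicate 1.

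Of 42 genes known as targets of cAMP and the factor CREB, 6 were listed (14.3%, against 2.64% of all genes tested), 5 higher and 1 lower. This signalling route runs from G protein-coupled receptors through protein kinase A to CREB, which binds the sequence TGACGTCA. PLAT, on this list too, is described above. SCG2, a secretory granule protein, read 11.7, 8.78 and 4.83 with siSRC2 and 3.61, 3.05 and 2.09 in the control, 2.89-fold higher with a wide spread (limma, adjusted p = 0.00161). NR4A2, an orphan nuclear receptor, stood at 5.06, 4.42 and 3.84 against 2.28, 1.9 and 1.66 (2.28-fold, adjusted p = 0.000339, limma), and its relative NR4A3 at 1.46 ± 0.188 against 0.83 ± 0.125. TENT5C, a poly(A) polymerase, rose 1.76-fold. The member that fell was SIK1, a kinase that restrains CREB coactivators, at 0.50, 0.63 and 0.62 against 1.68, 1.23 and 1.75 (2.66-fold, limma, adjusted p = 0.000569). No other member of the 44-gene immediate-early list than KLF2 was listed (2.27%, against 2.64% of all genes tested). NR4A2, NR4A3 and SIK1, given above, are not on the immediate-early list used here. KLF2 was lower at 3.37 ± 0.5897 against 6.5 ± 2.78, with overlapping groups (limma, adjusted p = 0.0179, and 0.0747 without siSRC2 replicate 3 or 0.0638 without control replicate 2).

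DIO2, the deiodinase that activates thyroid hormone, was not on the cAMP and CREB list but was among the largest rises, at 6.59, 5.1 and 5.27 against 3.08, 1.01 and 1.85 (2.86-fold, limma, adjusted p = 0.000753). Its RefSeq promoter window (GRCh38.p14, chr14:80212129-80212428, minus strand) is printed because it holds TGACGTCA, in capitals. The windows of SERPINB2 (chr18:63887455-63887754, plus strand) and F3 (chr1:94541710-94542009, minus strand) are printed beside it as a gene that fell and a gene that rose, both holding the AP-1 motif TGANTCA, in capitals.
DIO2: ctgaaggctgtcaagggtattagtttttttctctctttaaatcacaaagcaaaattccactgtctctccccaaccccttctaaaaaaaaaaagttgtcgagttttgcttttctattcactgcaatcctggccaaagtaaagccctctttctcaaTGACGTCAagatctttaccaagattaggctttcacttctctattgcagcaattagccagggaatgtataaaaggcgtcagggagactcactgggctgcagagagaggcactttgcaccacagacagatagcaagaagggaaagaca
SERPINB2: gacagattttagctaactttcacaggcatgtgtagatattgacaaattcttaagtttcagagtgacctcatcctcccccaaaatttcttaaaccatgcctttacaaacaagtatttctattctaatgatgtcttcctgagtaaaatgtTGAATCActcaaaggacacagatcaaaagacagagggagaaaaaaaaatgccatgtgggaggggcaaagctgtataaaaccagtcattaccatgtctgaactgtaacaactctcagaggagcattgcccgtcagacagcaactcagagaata
F3: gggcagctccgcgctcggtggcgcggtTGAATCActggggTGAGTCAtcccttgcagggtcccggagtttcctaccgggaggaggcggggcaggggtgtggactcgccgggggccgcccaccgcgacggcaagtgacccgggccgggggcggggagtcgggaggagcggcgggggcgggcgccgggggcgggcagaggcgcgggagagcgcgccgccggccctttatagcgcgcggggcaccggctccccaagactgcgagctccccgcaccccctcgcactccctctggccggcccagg
Such windows were found for 242 of the 331 genes, 129 higher with 196 windows and 113 lower with 165. On either strand TGACGTCA occurred in 2.04% of windows of genes higher, 1.82% of genes lower and 1.85% of all 35116 windows of the table. TGANTCA occurred in 7.14%, 12.1% and 7.71%, and CATTCC, the TEAD motif, in 16.3%, 12.1% and 14.0%. None of these letter strings contains another, and a match is a description of the letters only. Windows of ANKRD1 and LDB3 also hold TGANTCA, as does a DIO2 window other than the one printed. Windows of DIO2, ANKRD1 and FBN1 hold CATTCC.

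All 3 listed members of a 62-gene growth factor list (4.84%, against 2.64% of all genes tested) were higher. TGF-beta family genes went both ways. IGFBP4, a secreted binding protein of insulin-like growth factors, read 1819.6, 1879 and 1727 with siSRC2 and 984, 1012 and 1039 in the control, 1.79-fold higher (limma, adjusted p = 3.29e-05). PDGFD, a ligand of the platelet-derived growth factor receptor, was 2.1-fold higher at 2.32 ± 0.494 against 1.103 ± 0.0907, and the FGF receptor gene FGFR4 read 6.22 ± 0.46 against 4.31 ± 1.19. Of 45 TGF-beta and BMP genes 5 were listed (11.1%, against 2.64% of all genes tested), 2 higher and 3 lower. The receptor gene TGFBR1 measured 10.4, 9.6 and 11.2 against 5.95, 6.79 and 5.31 (1.73-fold higher, limma, adjusted p = 0.000641). BMP2, a ligand, measured 41.8, 35.9 and 25.6 against 24.9, 17.6 and 15.3 (1.79-fold higher, adjusted p = 0.00338, limma). GDF5, another ligand of BMP receptors, fell to 11.1 ± 1.64 from 18.1 ± 3.86, and NOG, the secreted BMP inhibitor noggin, to 2.85 ± 0.135 from 4.26 ± 0.587. TGFB3, a ligand at low signal, was lower at 0.87 ± 0.265 against 1.38 ± 0.0379, with an adjusted p of 0.0204 in the limma fit and of 0.0986 without siSRC2 replicate 2. None of the EGF receptor genes and ligands was listed.

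Cytokine signalling contributed single genes. CXCL12, a chemokine for leukocytes and progenitor cells, was the 1 listed gene of 44 secreted cytokines and chemokines (2.27%, against 2.64% of all genes tested). It read 6.61, 6.33 and 5.05 against 3.58, 3.23 and 2.67 (1.898-fold, limma, adjusted p = 0.000843). IL1R1, the interleukin-1 receptor, rose to 38.8, 35.9 and 29.2 from 22.8, 18.4 and 17.3, and IL7R, the interleukin-7 receptor, fell to 24.3, 25.2 and 23.4 from 41.3, 37.7 and 33.6. Of 43 interferon-stimulated genes 2 were listed (4.65%, against 2.64% of all genes tested). IFIT2, a translation inhibitor, fell to 1.51 ± 0.0874 from 2.56 ± 0.0709 and GBP2, a guanylate-binding protein, rose to 3.48 ± 1.095 from 1.63 ± 0.451. The complement genes C3 and C4A, outside any list here and picked after their values were seen, were higher at 6.803 ± 1.02 against 4.61 ± 1.85 and 4.43 ± 0.521 against 2.09 ± 0.234. The C3 libraries overlapped, and C4A has a near-identical relative, so its level is uncertain.

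Of 28 senescence markers 3 were listed (10.7%, against 2.64% of all genes tested), 1 higher and 2 lower. HMGA1, a chromatin protein of senescence-associated heterochromatin, read 713, 659.8 and 668 with siSRC2 and 1077, 998 and 894 in the control, 1.45-fold lower (limma, adjusted p = 0.000421). TP53INP1, a stress-induced p53 cofactor, fell 1.86-fold to 7.51, 7.34 and 6.57 from 14.9, 14.1 and 10.8. CDKN2B, which encodes the CDK inhibitor p15, rose to 7.66 ± 1.102 from 4.61 ± 0.729. Of 43 cell-cycle genes 2 were listed (4.65%, against 2.64% of all genes tested). CDK6, a G1 kinase, rose to 22.1, 21.2 and 19.6 from 13.3, 12.6 and 11.9. CDKN3, a phosphatase of CDKs, fell to 3.7, 2.52 and 2.38 from 5.15, 5.25 and 6.83. CDKN1A, CDKN2A and LMNB1 were not listed, nor was any member of the p53 target or DNA replication lists. The p53 target list used here does not hold TP53INP1. Of 26 histone genes 2 were listed (7.69%, against 2.64% of all genes tested). H2BC5 was 2.105-fold higher (54.5 ± 4.55 against 25.9 ± 1.26) and H2BC21 1.66-fold lower (22.8 ± 0.595 against 37.8 ± 5.401).

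Genes of skin barrier and placental families formed the counterpart of the matrix group. All 7 listed members of a 50-gene list (14.0%, against 2.64% of all genes tested) were lower. Their median log2 ratio was -1.003 against -0.72 for all genes listed as lower. LCE2C, a late cornified envelope gene, was the largest fall among genes whose higher group mean was at least 5. It read 2.44, 2.59 and 2.35 with siSRC2 and 15.2, 12.9 and 9.89 in the control (5.15-fold, limma, adjusted p = 2.68e-05), and LCE2A read 4.92, 7.08 and 5.34 against 20.1, 11.6 and 11.1. KRT19, a simple-epithelial keratin, fell to 73.3, 75.1 and 72.3 from 123, 148 and 134 (1.83-fold, adjusted p = 6.73e-05, limma). The hair keratin-associated genes KRTAP2-3 and KRTAP1-5 fell 1.75-fold and 1.56-fold. PSG1, a pregnancy-specific glycoprotein gene, stood at 21.9, 15.98 and 15 against 43.4, 46.5 and 31.02, and the pseudogene CEACAMP10 at 2.79 ± 0.616 against 5.59 ± 1.16. LCE2A, LCE2C, PSG1, CEACAMP10 and the KRTAP genes have near-identical relatives, so their levels are uncertain. KRT19 is also 1 of the 12 epithelial markers, and their part in these falls was not tested.

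**Figure D4:**
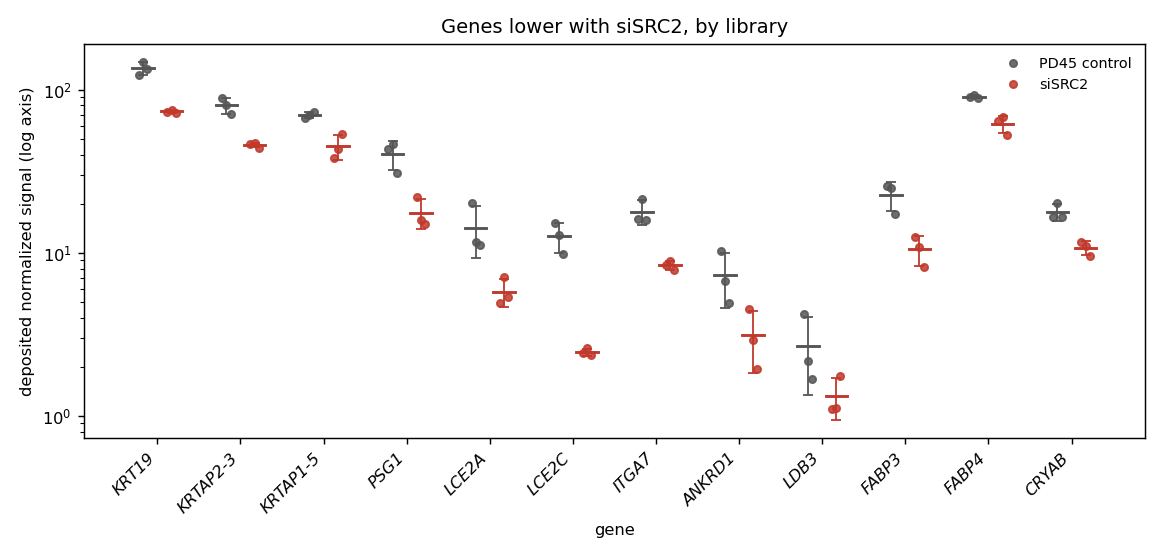
Deposited normalized signal (log axis) of 12 genes lower with siSRC2 in 3 PD45 control libraries (grey) and 3 siSRC2 libraries (red), with mean bars and SD. LCE2C shows the widest gap (2.46 against 12.7), and LDB3 is the 1 gene shown whose libraries overlap.

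Lipid-handling and stress genes were lower in part. FABP3 and FABP4, fatty acid-binding proteins, read 12.6, 10.8 and 8.15 against 25.7, 24.8 and 17.3 and 64.2, 67.9 and 52.98 against 90.5, 92.5 and 88.9, or 2.15-fold and 1.47-fold lower (limma, adjusted p = 0.000568 and 0.000753). APOE, a lipid carrier, rose to 8.51 ± 2.404 from 5.11 ± 1.03. ELOVL6, a fatty acid elongase, is listed as lower by the authors but its siSRC2 libraries read 3.4, 10.5 and 3.9 against 8.02, 6.2 and 6.02, and it did not pass the limma fit (adjusted p = 0.366). Without siSRC2 replicate 2 the adjusted p of ELOVL6 was 0.00334. CRYAB, a small heat-shock protein, fell to 10.7 ± 1.06 from 17.8 ± 2.14.

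Of 60 solute carrier genes 6 were listed (10.0%, against 2.64% of all genes tested), 3 higher and 3 lower. SFXN3, a mitochondrial carrier of the sideroflexin family, measured 24.6, 25.97 and 25.9 with siSRC2 and 59.5, 54.8 and 52.4 in the control, 2.18-fold lower with a narrow spread among siSRC2 libraries (limma, adjusted p = 3.29e-05). SLC2A12, a glucose transporter, fell to 1.14 ± 0.204 from 2.24 ± 0.514. SLC4A7, a bicarbonate cotransporter, rose to 12.5 ± 1.75 from 7.75 ± 0.551, as did the choline transporter SLC44A1, 1.58-fold. KCNK2, a mechanosensitive potassium channel, fell 2.28-fold to 2.24, 1.48 and 2.09 from 4.62, 3.46 and 5.14. TRPA1, an irritant-sensing cation channel, rose to 25.7, 23.97 and 35.8 from 17.2, 14.9 and 21.04. PIEZO2, a mechanosensitive channel, is listed as higher, yet its libraries overlapped (1.43, 1.04 and 1.41 against 0.60, 0.82 and 1.7) and it did not pass the limma fit (adjusted p = 0.302, and 0.0133 without control replicate 3).

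The largest falls also included genes of no list. CEND1, a neuronal cell-cycle exit protein, fell 2.29-fold to 10.7, 9.33 and 9.29 from 24.8, 22.6 and 19.6. NR2F6, an orphan nuclear receptor, fell 2.25-fold to 13.4, 12.98 and 15.8 from 35.5, 31.8 and 27.8, and LRP12, a lipoprotein receptor relative, 2.24-fold to 7.23, 7.74 and 7.13 from 17.8, 15.9 and 15.7. All of these passed the limma fit (adjusted p = 6.77e-05, 7.66e-05 and 6.38e-05). Genes with high control signals were named by rule whatever the size of their change. NDUFAF8, an assembly factor of respiratory complex I, read 75.3, 76.1 and 105 against 180.0, 160.1 and 182. ARF1, a GTPase of Golgi vesicle traffic, had closely grouped libraries at 404, 407 and 425 against 617, 608 and 615 (1.49-fold lower, limma, adjusted p = 0.000131). PRELID1 fell to 142 ± 8.46 from 210 ± 17.9, PRPS1 to 82.7 ± 5.45 from 120.7 ± 4.42, and CKB to 69.3 ± 1.74 from 106.9 ± 2.80. Among genes higher, GANAB, the glucosidase II subunit of glycoprotein folding, read 246, 250.3 and 253 against 132, 130.1 and 153 (1.805-fold, adjusted p = 6.38e-05, limma), and MESD, a chaperone of LDL-receptor-family proteins, 55.8, 51.5 and 47.4 against 26.4, 21.7 and 29.99. The largest rise among genes whose higher group mean was at least 5 was that of ENSG00000268643, which has no symbol. It read 30.8, 16.7 and 14.2 against 2.99, 7.29 and 4.87, a wide spread (4.07-fold, limma, adjusted p = 0.000478). From the gene lists, PITX1, a homeobox factor, was the 1 listed gene among 99 developmental transcription factors (1.01%, against 2.64% of all genes tested). It read 151, 141 and 153 against 87.2, 91.4 and 95.1.

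**Figure D5:**
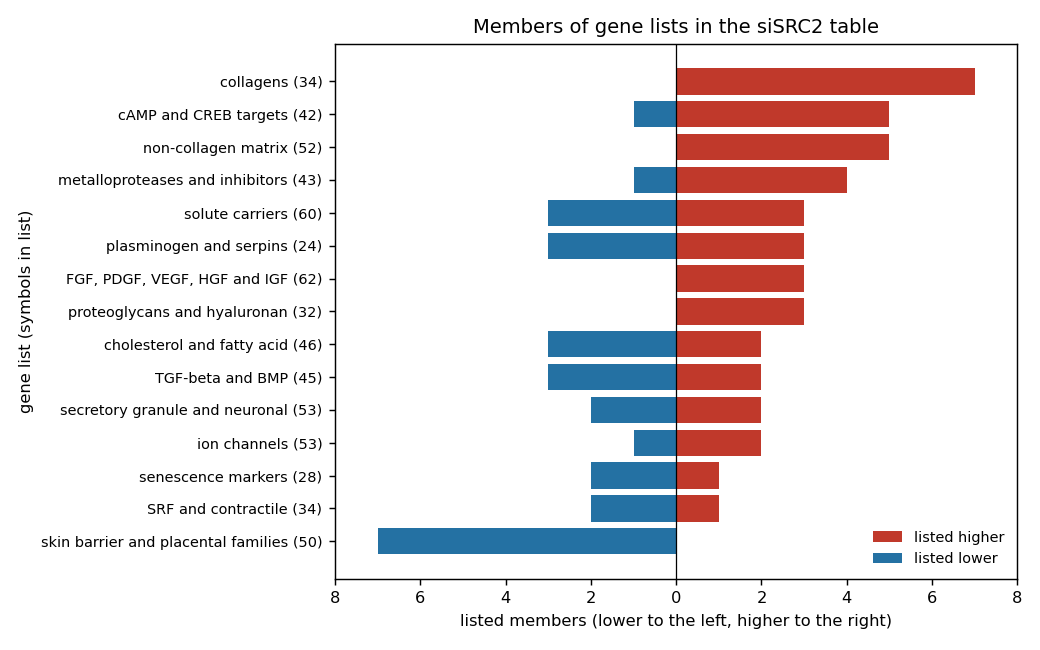
Bars give the number of members listed as higher (red, right) or lower (blue, left) with siSRC2, for gene lists with at least 3 listed members, with the number of symbols in each list in brackets. Collagens stand at 7 higher and 0 lower, and the skin barrier and placental families at 0 higher and 7 lower.

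Of 48 gene lists, 11 had no listed member. They were those of focal adhesion and SRC substrates, EGF receptor genes, p53 targets, DNA replication, hypoxia and glycolysis, lysosome and autophagy, prostaglandin mediators, mitochondrially encoded genes, siRNA machinery, and the smooth muscle and leukocyte markers. A gene missing from the table is not shown to be unchanged, since it may have failed the fold limit alone. An empty list covers its chosen symbols only. TP53INP1, given above, is not on the p53 target list. TBXAS1, thromboxane synthase, was listed as higher but is not on the prostaglandin list, and was picked after its values were seen.

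The other deposited comparisons use the same 3 control libraries, so their values are given side by side and not as independent support. For SRC the authors' deposited tables gave a log2 fold change of -0.81 with siSRC2 and -0.90 with siSRC4, and list none for GW8510 or PD30. For PLAT the authors' deposited tables gave 1.36 with siSRC2, -1.12 with GW8510 and 1.05 at PD30, and list none for siSRC4. COL3A1 had authors' deposited log2 fold changes of 0.92 with siSRC2, 0.93 with GW8510 and 1.73 at PD30, and COL4A1 of 0.66 with siSRC2, 0.70 with siSRC4 and 0.95 at PD30. Unlike COL3A1, the matrix genes CEMIP, COL4A6 and P4HA3 were lower with GW8510, at -1.30, -1.37 and -1.09 in the authors' deposited tables. These 3 were picked for that after their values were seen. For MMP14 the authors' deposited tables list 0.60 with siSRC2 and 1.43 with siSRC4, and for IGFBP4 0.77 and 0.76. For KRT19 the authors' deposited tables list -0.92 with siSRC2, 0.93 with GW8510 and -2.10 at PD30. Neither KRT19 nor COL3A1 is listed with siSRC4, and the same holds for PLAU, SERPINB2, F3, CEMIP, VCAN and COL6A3. Such absence does not show that a gene was unchanged with siSRC4. Some other genes went the opposite way with siSRC4, as given below.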

How the data were processed

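Total RNA of WI-38 cells was sequenced in 15 libraries, of which the 6 of PD45 siSRC2 and PD45 control are compared. Libraries were matched to groups by the column names of the table and the sample titles. In this table the mean column is titled siSRC, while its libraries are named siSRC2, and the library names were followed. Per the submitters' processing notes, CASAVA, HISAT2, StringTie, RSEM, DESeq2 and edgeR were used, without roles or usable versions, and the build named is GRCm38 (mouse). Since all identifiers are human, no coordinates are taken from the files. The table gives, per the file headers, the deposited normalized signal of each library beside the authors' ratio (fold change), log2 fold change, p-value and adjusted p-value. The signal is given with 2 decimals and does not keep read depth, so no counting interval is given.

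From the deposited signals, means, SD (n = 3) and ratios of means were computed (scipy 1.17.1, numpy 2.4.6 and pandas 2.3.3 under Python 3.11.15). Genes whose signal averaged 1 or more were fitted on log2(signal + 1) by limma 3.58.1 (R 4.3.3), using its intensity trend and Benjamini-Hochberg adjustment over all 310 genes fitted. Differences on that scale understate changes at low signal. The script was tested on simulated data. Whether the libraries are separate cultures is not in the labels, and the p-values rest on library-to-library spread that may be technical. Alternatives were other pseudocounts, signal minimums, no trend, the authors' scaling, a replicate block and leaving out each library. Symbols missing for 12 rows were looked up in the reference table, and 9 stayed without one. Gene types and transcripts are from GENCODE 29, and promoter windows from RefSeq (GRCh38.p14).

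Members and gene lists were chosen with earlier results of these data known. Genes named with values came from the 48 lists (98 listed genes), from the 15 largest ratios in each direction among genes whose higher mean was at least 5, and from the 10 highest control signals in each direction. Other genes are marked as chosen after their values were seen.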

Additional observations from a re-analysis of the deposited data

How the results depend on the processing

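Of 310 genes fitted, 296 passed, and every alternative fit kept that total within 1.5-fold (284 to 291 when 1 library was left out). A signal minimum of 5 left 203 genes, of which 200 passed, and the genes higher that passed were then 94, fewer because fewer were tested, against 148. With the signals scaled to the authors' fold changes (a shift of -0.05 on the log2 scale) 294 passed. Genes higher that passed ranged from 145 to 148, and genes lower from 138 to 145, when 1 library was left out. SRC passed in all fits, with a log2 difference from -0.81 to -0.61 over the other settings and from -0.79 to -0.72 when 1 library was left out. Of 115 other genes of the naming rule that were fitted, 112 passed, none reversed under any alternative, and 12 changed side in at least 1 fit. Beside those given above, FGFR4 missed the threshold without siSRC2 replicate 3 (adjusted p = 0.0620, limma) or control replicate 1 (0.0646) or 2 (0.0647). LEF1 did so without siSRC2 replicate 1 (0.0825) or control replicate 3 (0.0567), SLC43A3 without siSRC2 replicate 3 (0.0533), and SERF1B without control replicate 1 (0.0572). Of the 98 listed genes in the gene lists, 57 were higher and 41 lower. With at least 2-fold required by the authors' deposited table, the numbers were 14 higher and 13 lower, and 54 and 37 had groups that did not overlap.

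Replicate numbers are shared between the groups, but the labels do not say that they mark shared cultures. The deviations of same-numbered libraries correlated at 0.089, 0.088 and 0.22, so not all were above 0.1 and the numbers were not taken as pairing, although each library correlated best with its own number. With the replicate block 302 genes passed.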

Other observations

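Zinc finger genes in the table were mostly listed as higher, a group picked after its values were seen and not tested. Of 16 listed genes with ZNF, ZSCAN, ZFP or ZBTB symbols, 15 were higher and 1 lower, where 173 of all 331 listed genes were higher. The median log2 ratio of the 16 was 0.80. Their control signals ran from 0.377 to 16.8. ZNF664 read 32.8, 30.3 and 26.6 with siSRC2 and 15.98, 16.2 and 18.2 in the control (1.78-fold, limma, adjusted p = 0.000215), and ZNF618 read 7.06, 7.21 and 6.45 against 4.32, 3.47 and 3.42 (1.85-fold, adjusted p = 0.000557, limma). The member that fell was ZNF771, at 8.51, 7.44 and 10 against 14.7, 13.3 and 11.7. ZNF702P and ZSCAN2, listed as higher, did not pass the limma fit (adjusted p = 0.125 and 0.0847). In 14 of the 16 the groups did not overlap. How many zinc finger genes the authors tested is not known here, so no share listed is given.

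All 4 listed genes whose deposited description names the mitochondrion were lower, also a grouping made after the values were seen and without a known number tested, where 158 of all 331 listed genes were lower. MCUB, an inhibitory subunit of the mitochondrial calcium uniporter, read 1.5, 1.61 and 1.4 against 4.01, 5.77 and 4.85, and CARS2, the mitochondrial cysteinyl-tRNA synthetase, 40.6, 40.1 and 44.2 against 64.9, 60.3 and 63.95. MGARP fell 1.76-fold and MTFP1, a fission factor, 1.56-fold. Nuclear genes of mitochondrial proteins outside these descriptions went both ways, also picked after their values were seen and not counted in full. TRAP1, a mitochondrial chaperone, was lower (56.5 ± 2.37 against 88.03 ± 2.21). Also lower were SFXN3, NDUFAF8 and PRELID1, given above, and MRS2, GADD45GIP1 and SLC25A42. DBT, a subunit of the branched-chain keto acid dehydrogenase, was higher (4.01 ± 0.2397 against 2.52 ± 0.419). ALDH1L2, a folate enzyme, was higher too (5.203 ± 0.861 against 3.32 ± 0.854). None of the 13 mitochondrially encoded genes was listed.

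Some members moved in opposite directions with the other SRC siRNA, and were picked for that after their values were seen. ADAMTS19 had a mean signal of 21.8 ± 4.02 with siSRC2 and 9.17 ± 1.59 in the control, and 3.53 ± 0.849 with siSRC4. FOLR3, a folate-binding protein gene, stood at 3.05 ± 0.344, 6.61 ± 0.182 and 15.7 ± 1.41 in the same order, and KRTAP2-3 at 45.8 ± 1.45, 80.1 ± 8.88 and 138 ± 13.5. PCDH18 read 83.2 ± 3.696, 47.1 ± 3.57 and 24.6 ± 3.64. The libraries of the siRNAs lay on opposite sides of the control for these genes. A test of the difference was not run.

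For 19 of 331 genes the deposited log2 fold change of the authors lay more than 0.3 from the ratio of deposited signals on the log2 scale. The genes given here were chosen for that gap after their values were seen. For CMSS1 the authors' deposited table gave -0.78, while the signals were 4.82 ± 1.23 against 4.97 ± 0.323. For ARL10 the authors' deposited table gave 0.66 and the signals were 2.21 ± 0.692 against 2.01 ± 0.781. In MCUB the gap was the other way, with -0.79 in the authors' deposited table and a log2 ratio of signals of -1.70. Each row had the same sign by both measures. RN7SL2, a copy of the 7SL RNA of the signal recognition particle with many near-identical relatives, was listed as higher at 203 ± 29.6 against 132 ± 40.8, as were HFM1, a meiotic helicase gene (682 ± 67.5 against 457 ± 46.6), and the unnamed ENSG00000281181 (226 ± 32.2 against 114 ± 29.7).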
